A study of Mus musculus with 18 samples.

Results

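Polyadenylated RNA of mouse colon was sequenced in 18 libraries, 6 each from the groups named vector, TNBS and IBC, and the comparison described here sets the 12 TNBS and IBC libraries together against the 6 vector libraries. All 18 libraries of the series enter it, chosen by their group labels alone. TNBS is the usual short form of a hapten that induces colitis when it is given into the rodent colon. IBC is named only by its abbreviation in the labels, and the series' design text speaks of active components that act on the receptor GPR84 in inflammatory bowel disease. The sources used here give no strain, age, sex, dose or time. They also do not say whether the IBC animals received TNBS, whether the vector animals received the carrier of TNBS, or whether each library is a separate animal. The p-values below therefore measure the spread between these libraries, which may be technical.

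Chemical colitis begins with a broken epithelial barrier. Epithelial cells, fibroblasts and resident macrophages then release chemokines, small secreted proteins that draw neutrophils and monocytes out of the blood. The arriving cells add proteases, cytokines and phagocytic receptors to the tissue, while smooth muscle and enteric nerves in the wall of the inflamed colon can lose contractile and signalling transcripts. In whole tissue, fewer cells of a type and less RNA per cell cannot be told apart.

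Library totals, in units of 1e6 counts, lay between 55.67 and 78.87. Vector ranged most widely, with an SD of 8.511 around 65.37, and TNBS least, with an SD of 3.547 around 65.17. Each level is given as CPM, counts per 1e6 of the scaled library total. Slc26a3, the chloride and bicarbonate exchanger of surface colonocytes, had median levels of 653 CPM in vector, 242 CPM in TNBS and 476 CPM in IBC. In its list of 22 colonocyte transport genes, none differed between the 12 TNBS and IBC libraries and vector at an adjusted p below 0.05 by edgeR. At an unadjusted p below 0.05, 3 were lower (7.12% of all genes) and none higher, with a median log2 fold change of -0.24. Hoxb13, a homeobox gene of the distal colon, lay between 123 and 597.6 CPM in 12 libraries and at 1.443 CPM or less in the other 6, which are 2 libraries of each group (vector 3 and 4, TNBS 2 and 3, IBC 2 and 5). These sets are called Hoxb13-high and Hoxb13-low below, and differences are also given within each. The mitochondrial share of counts was 17.98% in vector 3 and between 4.483% and 9.199% in the other libraries. From 11 genes of the exocrine pancreas, vector 6 held 22140 counts per 1e6 counts, against at most 340.2 in any other library. Outside vector 6, Cela1 alone reached 327.4 in vector and 333.1 in TNBS or IBC, and no other of these genes passed 35.61 (Clps).

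**Figure D1:**
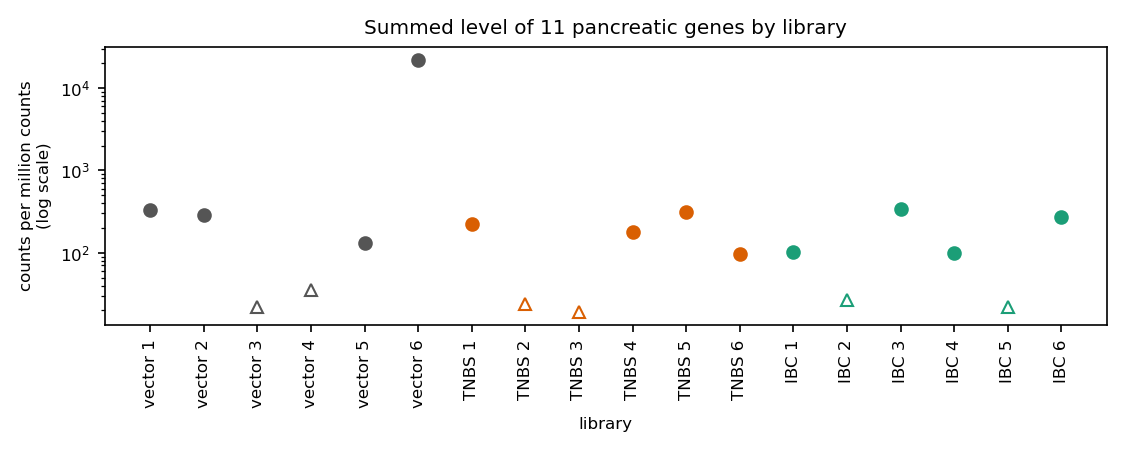
Summed counts per 1e6 counts of 11 pancreatic genes (log scale) in each library, with filled circles for Hoxb13-high and open triangles for Hoxb13-low libraries. Vector 6 stands at 22140, and the other 17 libraries lie at 340.2 or less. Outside vector 6, Cela1 alone reached 333.1, and no other gene passed 35.61.

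The 12 TNBS and IBC libraries together differed from vector in 39 of 20855 genes tested (0.187%) with edgeR's quasi-likelihood test at an adjusted p below 0.05. Of these, 14 rose (0.0671% of genes tested) and 25 fell (0.12%). The genes that rose include chemokines (Cxcl2, Ccl2, Ccl3), myeloid cell genes (Chil3, Clec10a, Clec4d, Hk3, Plaur) and the acute-phase protease inhibitor Serpina3n. Among those that fell are genes of muscle (Synm, Chrm2, Xirp1), of neural tissue (Opcml, Tppp, Stum), the glucocorticoid target Tsc22d3 and 6 pancreatic genes, each highest in vector 6. At an unadjusted p below 0.05, 3155 genes differed (15.1%), of which 1671 were higher (8.01%) and 1484 were lower (7.12%), and the median log2 fold change of all genes was -0.01. With library totals in place of scaled totals, 34 genes were called, 16 of them higher and 18 lower.

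Against vector, TNBS alone gave 4 called genes (0.0192%), Chil3 higher and Opcml, Synm and Disp3 lower, with 3703 at an unadjusted p below 0.05 (17.8%). The IBC libraries alone gave 0 called genes by edgeR, with 1778 at an unadjusted p below 0.05 (8.53%). Both comparisons share the 6 vector libraries, so their values are placed side by side below and not set against each other. The difference between the IBC and TNBS groups, which does not use vector, gave 0 called genes by edgeR and 820 at an unadjusted p below 0.05 (3.93%).

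**Figure D2:**
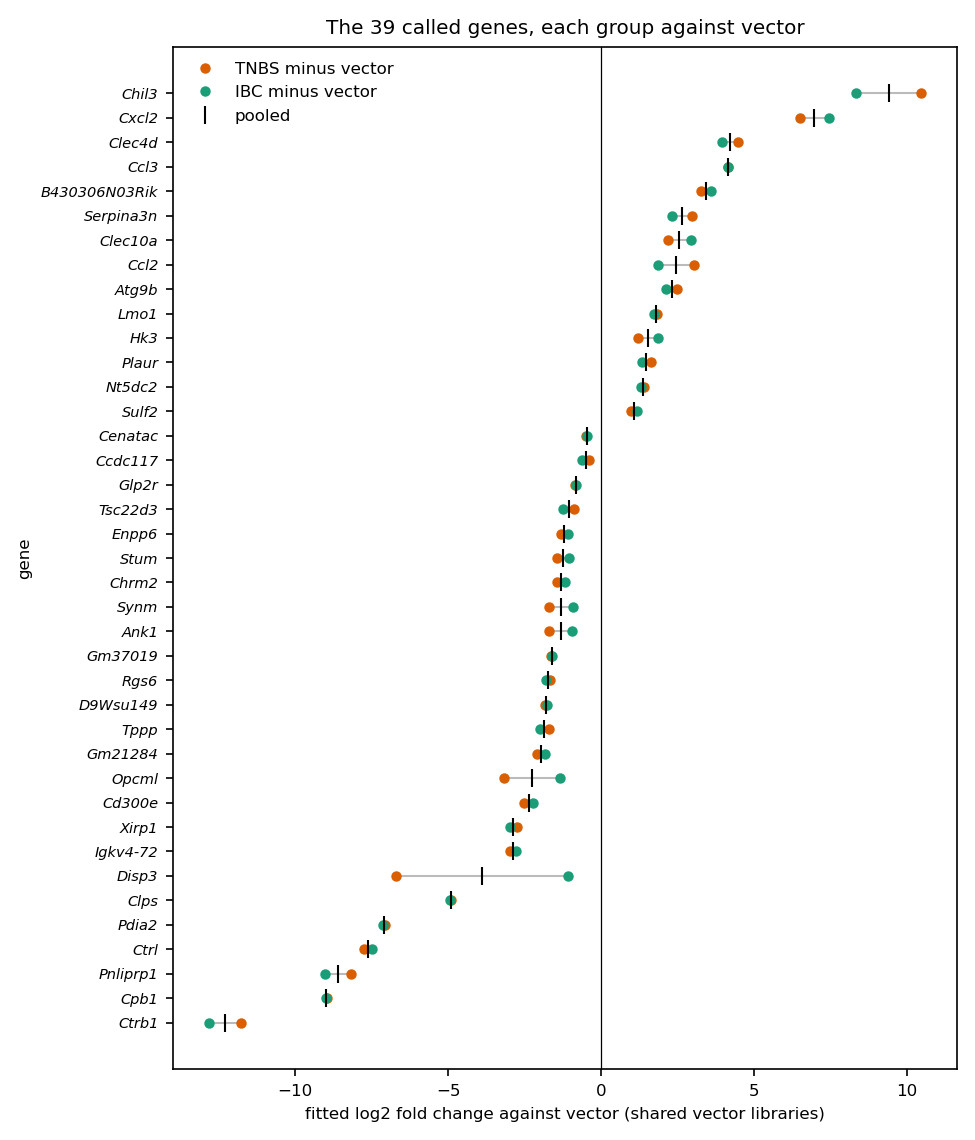
Fitted log2 fold change against vector of the 39 called genes, with TNBS minus vector in orange, IBC minus vector in green and the pooled value as a black bar. Chil3 stands highest and Ctrb1 lowest. The fitted values of Chil3, Cxcl2 and Disp3 depend on how counts of 0 are treated, and those of Ctrb1, Ctrl, Cpb1, Pnliprp1, Pdia2 and Clps moved by over 1.5 times without vector 6.

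The number of called genes depended on single libraries. Without vector 6, 0 genes were called by edgeR, with 2579 at an unadjusted p below 0.05 and a smallest adjusted p of 0.0748. No gene was called either without TNBS 1, TNBS 2, TNBS 3, TNBS 4, IBC 1, IBC 3 or IBC 6, with smallest adjusted p-values between 0.0521 and 0.0689 and between 2814 and 3358 genes at an unadjusted p below 0.05. Leaving out TNBS 6 raised the count to 244 (137 higher and 107 lower), which hold all 39 called genes. Without IBC 2 the count was 66 (33 higher and 33 lower), without TNBS 5 it was 33 and without IBC 5 it was 35. It was 7, 6, 14, 5 and 12 without vector 1 to vector 5 in turn, and 2 without IBC 4. All of these genes were lower, except 3 higher genes without vector 3. The pancreatic genes Ctrb1 and Ctrl, highest in vector 6, were among those called without each of vector 1 to vector 5. Clps and Pnliprp1 were also called without vector 1, 3, 4 or 5. TNBS 6 and IBC 2 are also the libraries most often within the vector range among the 14 genes that rose, for 7 and 5 genes, against at most 1 gene for any other library.

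**Figure D3:**
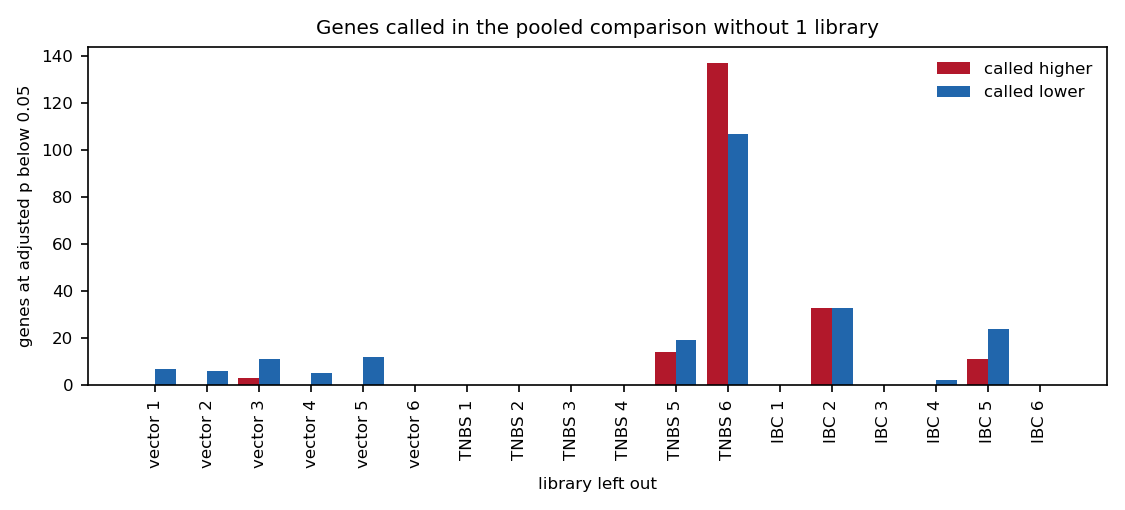
Genes called higher (red) and lower (blue) at an adjusted p below 0.05 when the library on the horizontal axis is left out of the pooled comparison. The count is 0 without vector 6, TNBS 1 to TNBS 4, IBC 1, IBC 3 or IBC 6, and reaches 137 higher and 107 lower without TNBS 6.

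Of 24 chemokine genes tested, 3 rose (Cxcl2, Ccl3 and Ccl2), and 14 of 24 were higher at an unadjusted p below 0.05 (8.01% of all genes), with none lower. Their median log2 fold change was 1.22, with 1.43 for TNBS and 0.92 for IBC. For genes near 0 in vector, such as Cxcl2 and Ccl3, the filter on low counts fixed the direction. Cxcl2, which attracts neutrophils through the receptor CXCR2, was at 0 in 5 vector libraries and at 0.079 CPM (5 counts) in vector 3. It ranged from 0.0975 to 2.91 CPM in TNBS (median 1.36) and from 0.0431 to 7.19 CPM in IBC (median 1.60). All TNBS libraries lay above vector, and IBC 4 alone lay under the value of vector 3. The edgeR adjusted p was 0.0386, and no fold is given against a group nearly all at 0.

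The neighbouring gene Cxcl1, a ligand of the same receptor, did not pass the test (edgeR adjusted p = 0.0506) but separated the groups. It ran from 0.232 to 0.552 CPM in vector (median 0.323), from 0.76 to 6.83 CPM in TNBS (median 2.92) and from 0.575 to 7.02 CPM in IBC (median 1.27). The lowest non-vector library, IBC 4, lay just above the highest vector library. Additional ligands of that receptor, Cxcl5 and Cxcl3, had median levels of 3.22 and 0.715 CPM in TNBS and 3.57 and 0.611 CPM in IBC. In vector, the median was 0.0989 CPM for Cxcl5 and 0 for Cxcl3, and their adjusted p-values were 0.0665 and 0.0766.

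NF-kB is the transcription factor best known for switching on Cxcl1 and Cxcl2, and a form of its binding motif was searched for in the promoters of the called genes and of Cxcl1. The promoters with a match are shown. The 250 bases before the start of Cxcl1, Cxcl2 and the called gene Serpina3n are printed from RefSeq on the GRCm38.p6 build, with matches to GGG, any 2 bases and TTTCC, read on either strand, in capitals. They lie at chr5:90890995-90891244, chr5:90903649-90903898 and chr12:104406458-104406707, all on the plus strand.
Cxcl1: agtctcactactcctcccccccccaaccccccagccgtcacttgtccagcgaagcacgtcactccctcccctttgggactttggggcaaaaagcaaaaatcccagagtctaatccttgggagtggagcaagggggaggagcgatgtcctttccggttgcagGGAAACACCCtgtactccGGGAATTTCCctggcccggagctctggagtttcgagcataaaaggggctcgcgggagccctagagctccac
Cxcl2: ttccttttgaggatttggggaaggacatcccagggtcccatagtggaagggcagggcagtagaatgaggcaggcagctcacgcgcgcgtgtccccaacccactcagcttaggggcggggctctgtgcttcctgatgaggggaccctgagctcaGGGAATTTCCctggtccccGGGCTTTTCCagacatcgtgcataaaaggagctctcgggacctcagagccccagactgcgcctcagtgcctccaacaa
Serpina3n: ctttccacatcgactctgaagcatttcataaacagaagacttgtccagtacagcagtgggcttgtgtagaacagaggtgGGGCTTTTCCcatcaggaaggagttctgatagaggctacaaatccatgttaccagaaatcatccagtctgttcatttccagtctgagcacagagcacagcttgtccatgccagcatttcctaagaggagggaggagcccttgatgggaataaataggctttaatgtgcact
Both chemokine promoters hold 2 matches, one of which has the same letters, GGGAATTTCC, in both genes. The Serpina3n promoter holds 1. Of 32851 promoters of this length, 464 hold a match on either strand (1.41%). Counted by gene, 2 of the 28 called genes with a promoter in the reference hold a match. A gene may have several promoters, so the 2 counts differ in unit and are not compared. A match is a description of the letters and not of binding. Among 20 NF-kB and Toll-like receptor genes tested, none was called, and the median log2 fold change was 0.10. At an unadjusted p below 0.05, 1 was higher (8.01% of all genes) and 3 were lower (7.12%).

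Ccl2, the ligand of the monocyte receptor CCR2, lay between 0.442 and 1.44 CPM in vector (median 1.07), between 2.05 and 20.3 CPM in TNBS (median 5.01) and between 1.75 and 6.44 CPM in IBC (median 2.96). No TNBS or IBC library overlapped with vector. The pooled log2 fold change was 2.44 ± 0.48 (SE, edgeR adjusted p = 0.045), with 3.03 ± 0.52 for TNBS and 1.86 ± 0.50 for IBC. IBC minus TNBS was -1.17 (unadjusted p = 0.0276, adjusted p = 0.925). Within the Hoxb13-high libraries the mean difference in log2 CPM was 1.81, and within the Hoxb13-low libraries it was 3.01.

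Ccl3, a chemokine made by activated macrophages, was at 0 in 3 vector libraries and reached 0.0649 CPM in the others. It ranged from 0.114 to 1.09 CPM in TNBS (median 0.463) and from 0.178 to 1.17 CPM in IBC (median 0.531). Again no library overlapped with vector, and the edgeR adjusted p was 0.0423. Its neighbour Ccl4 also lay higher in all 12 libraries than in any vector library, from 0.186 CPM in TNBS 6 upward against at most 0.142 CPM in vector.

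Cytokines pointed the same way without a called gene. Of 16 listed, 13 were tested, and 9 of these were higher at an unadjusted p below 0.05 (8.01% of all genes). All 13 had a positive log2 fold change (10241 of 20855 over all genes), with a median of 1.28. For genes near 0 in vector, such as Il6, the filter on low counts fixed this direction. Il1b, the main secreted product of the inflammasome, lay between 0.868 and 4.68 CPM in vector (median 1.70), between 2.99 and 24.7 CPM in TNBS (median 8.46) and between 3.33 and 32.4 CPM in IBC (median 8.49). These ranges overlap through vector 2, at 4.68 CPM. Its log2 fold change was 2.5 ± 0.62 (edgeR adjusted p = 0.0968).

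Tnf had medians of 0.708 CPM in vector, 2.82 CPM in TNBS and 2.17 CPM in IBC, and a log2 fold change of 1.78 ± 0.47 (edgeR adjusted p = 0.113). Il6 was at 0 in 4 vector libraries and at 0 in TNBS 6 and IBC 2, with medians of 0.475 CPM in TNBS and 0.262 CPM in IBC (adjusted p = 0.197). Il33, an alarmin of stromal and epithelial nuclei, had medians of 5.46 CPM in vector, 19 CPM in TNBS and 12.3 CPM in IBC (adjusted p = 0.127).

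Neutrophil genes had the highest median of the 45 gene lists, 3.30 on the log2 scale, with 3.34 for TNBS and 3.30 for IBC. Of 18 listed, 16 were tested. Genes near 0 in vector, such as Mmp8, passed the filter on low counts only through TNBS and IBC libraries, which fixed their direction. All 16 had a positive log2 fold change (10241 of 20855 over all genes). At an unadjusted p below 0.05, 14 were higher (8.01% of all genes), and the list held 1 called gene. This gene is Clec4d, a C-type lectin receptor of myeloid cells that recognises mycobacterial glycolipid. It lay between 0.114 and 0.36 CPM in vector (median 0.186), between 0.543 and 18.8 CPM in TNBS (median 3.02) and between 0.162 and 7.38 CPM in IBC (median 3.03). IBC 2 alone lay within the vector range. Its log2 fold change was 4.21 ± 0.81 (edgeR adjusted p = 0.0396).

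Other neutrophil genes reached adjusted p-values just above the threshold. Mmp8, the neutrophil collagenase, had medians of 0, 1.30 and 0.716 CPM in vector, TNBS and IBC (adjusted p = 0.0617). S100a9, a subunit of calprotectin, had medians of 0.362, 3.42 and 4.90 CPM (adjusted p = 0.0872). Csf3r, the receptor for the granulocyte growth factor, had medians of 1.37, 5.01 and 7.56 CPM (adjusted p = 0.0872). In the Hoxb13-low libraries fitted alone, 7 of the 16 were higher at an unadjusted p below 0.05 (8.21% of all genes in that fit) and 1 was lower (10.7%).

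Monocyte and macrophage genes were higher at an unadjusted p below 0.05 for 14 of 22 (8.01% of all genes), with a median log2 fold change of 0.88 and no called gene. Ccr2, the receptor for Ccl2 on monocytes, had medians of 3.27 CPM in vector, 9.49 CPM in TNBS and 22.7 CPM in IBC, and a log2 fold change of 2.14 ± 0.44 (edgeR adjusted p = 0.0539). C1qa, a complement subunit made by resident macrophages, had medians of 48.7, 73.5 and 82.5 CPM (adjusted p = 0.192).

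Genes tied to alternatively activated macrophages held 2 called genes among 12, with 6 higher at an unadjusted p below 0.05 (8.01% of all genes) and none lower. Chil3, a chitinase-like protein that mouse macrophages and neutrophils secrete, lies on chromosome 3 at 106054870 to 106074880 on the minus strand as the deposited table gives it, with no build named. It was at 0 in 5 vector libraries and at 0.0626 CPM (4 counts) in vector 1. It ranged from 0.217 to 65.7 CPM in TNBS (median 5.70) and from 0.453 to 8.66 CPM in IBC (median 2.91). All 12 libraries lay above every vector library, with TNBS 5 and TNBS 3 highest. As Chil3 was near 0 in vector, the filter on low counts fixed this direction. Its edgeR adjusted p was 0.0378 for the pooled comparison, 0.0471 for TNBS alone and 0.125 for IBC alone. It remained called in 4 of the 18 fits that leave out 1 library, with adjusted p-values up to 0.216 over all settings.

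Clec10a, a galactose-binding lectin of macrophages and dendritic cells, lay between 0.646 and 1.63 CPM in vector (median 1.09), between 0.776 and 6.96 CPM in TNBS (median 5.89) and between 1.29 and 18.1 CPM in IBC (median 6.78). TNBS 6 and IBC 2 lay within the vector range, and the other 10 libraries lay above it. The log2 fold change was 2.56 ± 0.49 (edgeR adjusted p = 0.0396). Arg1, the arginase of such macrophages, did not pass the test, with medians of 0.823, 5.45 and 16.1 CPM in vector, TNBS and IBC (adjusted p = 0.0539).

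Plaur, the receptor that holds the protease urokinase at the cell surface, was the called gene among 20 protease and fibrinolysis genes. It lay between 5.73 and 8.40 CPM in vector (median 7.12), between 5.94 and 35.3 CPM in TNBS (median 22.4) and between 12 and 25.3 CPM in IBC (median 16). TNBS 6 alone lay within the vector range. The log2 fold change was 1.48 ± 0.28 (edgeR adjusted p = 0.0393), and the difference within the Hoxb13-high and Hoxb13-low libraries was 1.28 and 1.59. Of the whole list, 14 of 20 were higher at an unadjusted p below 0.05 (8.01% of all genes) and none lower, with a median of 0.84. In the Hoxb13-low libraries fitted alone, 5 of the 20 were higher (8.21% of all genes) and 3 were lower (10.7%), and the median was 0.28.

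Serpina3n, a secreted inhibitor of serine proteases that rises in the acute phase, lay between 8 and 17.9 CPM in vector (median 11.2), between 13.9 and 187 CPM in TNBS (median 77.5) and between 12 and 85.3 CPM in IBC (median 67). Within the vector range lay TNBS 6 and IBC 2. Its log2 fold change was 2.63 ± 0.53 (edgeR adjusted p = 0.0482), called in 2 of the 18 fits that leave out 1 library. In its list of 17 complement and acute-phase genes, 10 were higher at an unadjusted p below 0.05 (8.01% of all genes) and 1 was lower (7.12%). Lrg1, an acute-phase glycoprotein, missed the threshold at an adjusted p of 0.0503, with medians of 5.02, 24.7 and 18 CPM in vector, TNBS and IBC.

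A further 6 genes rose, which belong to several functions. Hk3, the hexokinase of myeloid cells, had a log2 fold change of 1.53 ± 0.30 (edgeR adjusted p = 0.0482) and medians of 1.21, 2.64 and 4.60 CPM in vector, TNBS and IBC. Sulf2, an extracellular enzyme that removes sulfate from heparan sulfate chains, lay between 18.6 and 37.8 CPM in vector and between 30.6 and 72.6 CPM in the 12 others (1.07 ± 0.20, adjusted p = 0.0396). Atg9b, a membrane protein of autophagy, lay between 0.407 and 0.892 CPM in vector and between 0.729 and 6.58 CPM in the others (2.31 ± 0.41, adjusted p = 0.0378). TNBS 6 lay within the vector range for all 3 genes, IBC 2 for Hk3 and Sulf2, and TNBS 4 for Hk3.

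Nt5dc2, which carries a nucleotidase domain, lay between 4.57 and 6.52 CPM in vector and between 6.75 and 29.6 CPM in the 12 others without overlap (1.36 ± 0.25, edgeR adjusted p = 0.0378). The uncharacterised gene B430306N03Rik also did not overlap, with 0.0632 to 0.409 CPM in vector and 0.559 to 6.07 CPM in the others (3.43 ± 0.62). Lmo1, a cofactor of transcription factors, had medians of 0.279, 0.892 and 1.06 CPM in vector, TNBS and IBC (1.78 ± 0.35, adjusted p = 0.0482), and its vector range held TNBS 6. Over the 11 genes that rose and had no vector library at 0, the difference in log2 CPM ran from 1.28 to 3.70 within the Hoxb13-high libraries and from 0.64 to 3.08 within the Hoxb13-low libraries. For the other 3 (Chil3, Cxcl2 and Ccl3) its size depends on how counts of 0 are treated. These genes were called on the same libraries, so a shared direction in both sets is no separate support. Fitted alone, the Hoxb13-high libraries called 1 of the 39 genes and the Hoxb13-low libraries 0.

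**Figure D4:**
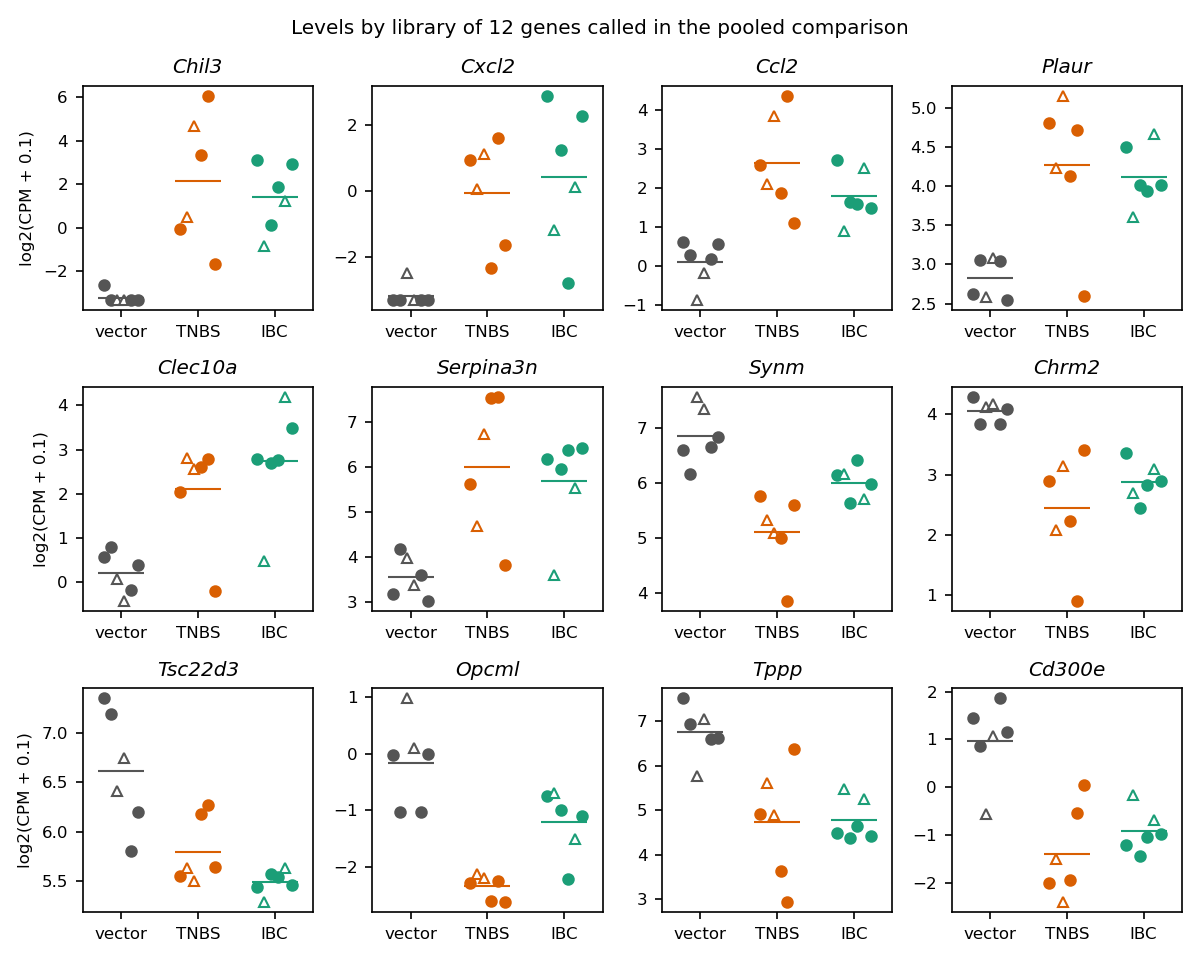
Levels of 12 called genes as log2(CPM + 0.1) in each library of vector (grey), TNBS (orange) and IBC (green), with filled circles for Hoxb13-high and open triangles for Hoxb13-low libraries and a line at the group mean. Chil3 and Ccl2 lie above vector in all 12 libraries and Chrm2 lies below it in all 12, while TNBS 6 and IBC 2 lie within the vector range for Clec10a and Serpina3n.

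Smooth muscle genes were lower as a group: all 22 tested had a negative log2 fold change, 13 of them at an unadjusted p below 0.05 (7.12% of all genes), with a median of -0.60 (-0.76 for TNBS and -0.46 for IBC). The called gene was Synm, an intermediate filament protein that ties the contractile apparatus to the cell membrane. It lay between 71.9 and 188 CPM in vector (median 107), between 14.4 and 54.4 CPM in TNBS (median 37.1) and between 49.7 and 84.9 CPM in IBC (median 66.9). All TNBS libraries lay below vector, and IBC 4 lay within the vector range. The log2 fold change was -1.31 ± 0.23 (edgeR adjusted p = 0.0378), with -1.72 ± 0.28 for TNBS and -0.90 ± 0.27 for IBC, and IBC minus TNBS was 0.81 (unadjusted p = 0.00763, adjusted p = 0.925). Without vector 3, where Synm was highest, 6 of the 22 genes were lower at an unadjusted p below 0.05 (5.18% of all genes in that fit) and the median was -0.41.

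Myh11, the smooth muscle myosin heavy chain, had medians of 671 CPM in vector, 337 CPM in TNBS and 436 CPM in IBC, with a log2 fold change of -1.40 ± 0.32 that did not pass the test (edgeR adjusted p = 0.0772). Chrm2, the muscarinic receptor that is most abundant on gut smooth muscle, did pass it. It lay between 14.2 and 19.4 CPM in vector (median 17.2), between 1.76 and 10.5 CPM in TNBS (median 5.98) and between 5.38 and 10.1 CPM in IBC (median 7.16), without overlap. The log2 fold change was -1.30 ± 0.25 (adjusted p = 0.0396), and the differences within the Hoxb13-high and Hoxb13-low libraries were -1.41 and -1.40. Xirp1, an actin-binding protein of striated muscle, also fell without overlap, from 0.392 to 1.60 CPM in vector to at most 0.264 CPM in the 12 others (-2.87 ± 0.53, adjusted p = 0.0378).

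Neural adhesion and channel genes were lower at an unadjusted p below 0.05 for 11 of 20 (7.12% of all genes), and none was higher. Their median was -0.71 (-0.84 for TNBS and -0.66 for IBC). The called gene was Opcml, a cell adhesion molecule of the neuronal surface, which had the smallest p of all genes. It lay between 0.389 and 1.88 CPM in vector (median 0.892), between 0.0621 and 0.128 CPM in TNBS (median 0.108) and between 0.115 and 0.518 CPM in IBC (median 0.383). TNBS lay wholly below vector, and IBC 1, IBC 2 and IBC 3 lay within the vector range. The log2 fold change was -2.25 ± 0.35 (edgeR adjusted p = 0.0378), with -3.18 ± 0.46 for TNBS and -1.33 ± 0.42 for IBC. IBC minus TNBS was 1.85 (unadjusted p = 0.000572, adjusted p = 0.925). With counts divided by 4, or with a filter of at least 1 CPM in 6 libraries, Opcml was not tested. With TNBS and IBC fitted as 1 group, its edgeR adjusted p was 0.083.

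Disp3, of the dispatched family of membrane proteins, had 8 to 16 counts in each vector library, 0 counts in every TNBS library and 0 to 11 counts in the IBC libraries. Its pooled adjusted p in edgeR was 0.0378, its adjusted p was 0.0484 for TNBS alone and 0.684 for IBC alone, and IBC minus TNBS had an unadjusted p of 6.94e-05 (adjusted p = 0.925). No fold is given against the TNBS group. Among 22 genes of enteric neurons and glia, 6 were lower at an unadjusted p below 0.05 (7.12% of all genes) and none was higher, with a median of -0.36. Snap25, a protein of synaptic vesicle release, had medians of 7.39, 5.10 and 4.83 CPM in vector, TNBS and IBC (adjusted p = 0.193).

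Outside these lists, 4 called genes are known from nerve or excitable tissue. Tppp, which promotes tubulin polymerisation in oligodendrocytes, lay between 54.5 and 183 CPM in vector (median 110), between 7.52 and 82.2 CPM in TNBS (median 29.7) and between 20.5 and 44.0 CPM in IBC (median 23.5). Only TNBS 6 reached the vector range, whose lowest value is that of vector 3, and the log2 fold change was -1.86 ± 0.36 (edgeR adjusted p = 0.0409). Rgs6, a regulator that shortens G protein signals downstream of muscarinic receptors, fell by 1.75 ± 0.30 on the log2 scale (adjusted p = 0.0378), with medians of 2.32, 0.813 and 0.668 CPM in vector, TNBS and IBC. Stum, named for a mechanosensory protein of the fly, fell by 1.25 ± 0.25 (adjusted p = 0.0482), and Enpp6, a choline phosphodiesterase of newly formed oligodendrocytes, fell by 1.20 ± 0.24 without overlap (adjusted p = 0.0482).

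Tsc22d3 encodes GILZ, a leucine zipper protein that glucocorticoids induce and that restrains inflammatory signalling. It lay between 55.6 and 164 CPM in vector (median 96.5), between 45.1 and 77.1 CPM in TNBS (median 49.6) and between 38.8 and 49.6 CPM in IBC (median 45.1). All IBC libraries lay below vector, and TNBS 4 and TNBS 5 lay within its range. Pooled, the log2 fold change was -1.06 ± 0.19 (edgeR adjusted p = 0.0378), with -0.89 ± 0.22 for TNBS and -1.23 ± 0.22 for IBC. In its list of 18 glucocorticoid and circadian genes, 5 were lower (7.12% of all genes) and 1 was higher (8.01%) at an unadjusted p below 0.05, with a median of -0.27. Per1 had medians of 39.7, 26.7 and 28.4 CPM in vector, TNBS and IBC (adjusted p = 0.209), while Fkbp5, another glucocorticoid target, had medians of 150, 258 and 202 CPM (adjusted p = 0.465).

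Cd300e, an activating receptor of monocytes, fell although the other myeloid genes named above were higher. It lay between 0.584 and 3.54 CPM in vector (median 2.08), between 0.0895 and 0.931 CPM in TNBS (median 0.209) and between 0.271 and 0.793 CPM in IBC (median 0.397). TNBS 5, TNBS 6 and IBC 2 lay above vector 3, the lowest vector library, and below the other 5. Its pooled log2 fold change was -2.37 ± 0.42 (edgeR adjusted p = 0.0378). Glp2r, the receptor for the gut growth hormone GLP-2, fell by 0.84 ± 0.17 (adjusted p = 0.0482), with medians of 8.66, 5.50 and 5.33 CPM in vector, TNBS and IBC. Ank1, a protein of the membrane skeleton of red cells and muscle, fell by 1.33 ± 0.24 (adjusted p = 0.0378). Its log2 fold change was -1.69 ± 0.29 for TNBS and -0.96 ± 0.29 for IBC, and IBC 3, IBC 4 and IBC 5 lay within the vector range.

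None of 7 red blood cell genes was called, but all 7 had a negative log2 fold change, with a median of -1.37. At an unadjusted p below 0.05, 6 were lower (7.12% of all genes). Hbb-bs, an adult beta globin, had medians of 83.9, 33.1 and 21.2 CPM in vector, TNBS and IBC (edgeR adjusted p = 0.0872), and Alas2, the enzyme that starts haem synthesis in red cell precursors, had medians of 2.30, 0.618 and 0.706 CPM (adjusted p = 0.0708). Globin genes are near-identical copies, so reads may be split between them.

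The remaining genes that fell are of mixed kinds. Cenatac, a component of the minor spliceosome, and Ccdc117 fell by 0.47 ± 0.09 and 0.51 ± 0.10 (edgeR adjusted p = 0.0378 and 0.0482), the smallest changes among called genes. Cenatac lay between 24.9 and 31.3 CPM in vector and between 17 and 22.5 CPM in the 12 others, without overlap. The long non-coding RNA Gm21284, the processed pseudogene D9Wsu149 and the unclassified transcript Gm37019 also fell without overlap, by 1.95 ± 0.31, 1.80 ± 0.34 and 1.61 ± 0.31 (adjusted p = 0.0378, 0.0396 and 0.0396). Igkv4-72, an immunoglobulin light chain variable segment, fell by 2.89 ± 0.53 (adjusted p = 0.0378), and vector 2 held 224.5 CPM against 10.59 to 30.86 CPM in the other vector libraries. Without vector 2 its log2 fold change was -1.38, which did not pass the test (adjusted p = 0.105). Without the 6 pancreatic genes, and without Disp3 and Xirp1, which had TNBS or IBC libraries at 0, the difference in log2 CPM of the genes that fell ran from -2.69 to -0.41 within the Hoxb13-high libraries and from -2.49 to -0.54 within the Hoxb13-low libraries. As these genes were called on the same libraries, their shared direction in both sets is no separate support.

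The 6 pancreatic genes are Ctrb1 and Ctrl (chymotrypsins), Clps (colipase), Pnliprp1 (a lipase-related protein), Cpb1 (a carboxypeptidase) and Pdia2 (a disulfide isomerase of the pancreas). Ctrb1 was at 6914 CPM in vector 6, at most 0.657 CPM in the other vector libraries and at most 0.575 CPM in TNBS and IBC. The values of Ctrl were 977 CPM in vector 6, at most 1.55 CPM in the other vector libraries and at most 1.39 CPM in TNBS and IBC. Cpb1 was 1471 CPM in vector 6, and without that library its log2 fold change turned from -8.99 to 0.50. Without vector 6 no gene was called, and the log2 fold change of Ctrb1 was -0.13. Clps and Pnliprp1 stayed lower by value without it, at -1.99 and -2.42 (edgeR adjusted p = 0.181 and 0.314). Clps was also at 30.9 CPM in vector 2 and 35.3 CPM in vector 5, against at most 7.74 CPM in TNBS and IBC.

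GPR84 is a receptor for medium-chain fatty acids on myeloid cells that signals through Gi proteins, and phosphoinositide 3-kinase and AKT act downstream of many such receptors. None of 26 genes of this list was called, and the median was -0.21. At an unadjusted p below 0.05, 1 was higher (8.01% of all genes) and 2 were lower (7.12%). Gpr84 was at 0 in 4 vector libraries and reached 0.101 CPM in the others. It ranged from 0 to 1.30 CPM in TNBS (median 0.201) and from 0 to 0.402 CPM in IBC (median 0.244), with 0 in TNBS 4, TNBS 6 and IBC 4 (edgeR unadjusted p = 0.0117, adjusted p = 0.216). The groups overlap, and each value rests on at most 87 counts. Gpr84 is the 1 higher gene of the list, and as it was near 0 in vector, the filter on low counts fixed its direction. Akt1 had medians of 219 CPM in vector, 247 CPM in TNBS and 215 CPM in IBC, with a log2 fold change of 0.18 ± 0.12 (adjusted p = 0.482).

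Among the kinase subunits, Pik3cg and its regulator Pik3r5, which form the G protein-activated kinase of leukocytes, had log2 fold changes of 0.03 ± 0.34 and -0.38 ± 0.33 (edgeR adjusted p = 0.973 and 0.583). Pik3cg ranged from 4.23 to 16.6 CPM in vector, 4.46 to 14.6 CPM in TNBS and 4.29 to 18.6 CPM in IBC, so its groups overlapped throughout, and its sign changed in several settings. Pik3r3, another regulatory subunit, had medians of 46.6, 29.1 and 33.9 CPM (-0.63 ± 0.18, adjusted p = 0.141).

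Without any model, 15 genes lay higher in all 12 TNBS and IBC libraries than in every vector library (0.0719% of genes tested) and 23 lay lower (0.11%). Of these 38, 12 were also called: Chil3, B430306N03Rik, Nt5dc2, Ccl3 and Ccl2 among the higher and Gm21284, Xirp1, Cenatac, D9Wsu149, Gm37019, Chrm2 and Enpp6 among the lower. For genes near 0 in vector, such as Chil3 and Ccl3, the filter on low counts fixed the direction. The other 26 did not pass the test and include the chemokines Cxcl1 and Ccl4. Ifitm1, an interferon-induced membrane protein, lay between 6.07 and 9.51 CPM in vector and between 9.70 and 111.5 CPM in the others, with TNBS 6 nearest to vector. Clk1, a kinase that controls splicing, lay between 187 and 227 CPM in vector and between 107 and 176 CPM in the others, and Ccnl2, a cyclin of splicing factors, lay between 271 and 319 CPM in vector and between 129 and 268 CPM in the others. These 5 genes of the 26 were chosen after their values were seen.

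With the Hoxb13 set as a covariate, 165 genes were called, 79 higher (0.379% of genes tested) and 86 lower (0.412%), including 37 of the 39. Added among the higher were Ccr2 (1.98 ± 0.31, edgeR adjusted p = 0.013) and the neutrophil genes Mmp8 (adjusted p = 0.0304) and Retnlg (3.74 ± 0.70, adjusted p = 0.0292). No fold is given for Mmp8, which had a median of 0 in vector and whose direction the filter on low counts fixed. The acute-phase genes Lrg1 (2.48 ± 0.47, adjusted p = 0.0292) and Saa3 (4.35 ± 0.85, adjusted p = 0.0305) were also added. Among the lower the covariate fit added Myom1, a protein of the sarcomere, which had the smallest p there (-1.32 ± 0.16, adjusted p = 0.00468). The muscle calcium store protein Casq2 (-1.07 ± 0.21, adjusted p = 0.0305) was added too. By list, 6 of 24 chemokines, 4 of 16 neutrophil genes and 5 of 12 alternatively activated macrophage genes were then called higher, and 6 of 22 smooth muscle genes lower.

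In the cell cycle list, 21 of 24 genes were higher at an unadjusted p below 0.05 (8.01% of all genes) and none was lower, with a median of 0.58 and no called gene. Its medians were 0.65 for TNBS and 0.61 for IBC. Aurka, a kinase of the mitotic spindle, had medians of 16.9, 28.5 and 30.8 CPM in vector, TNBS and IBC (0.80 ± 0.20, edgeR adjusted p = 0.095), and Rrm2, which makes DNA precursors, had medians of 22.6, 55.7 and 47.1 CPM (adjusted p = 0.113). Without vector 3 the count was 15 of 24 (7.8% of all genes in that fit) and the median 0.47.

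Of the 22 extracellular matrix genes, 6 were higher at an unadjusted p below 0.05 in all libraries (8.01% of all genes), with a median of 0.77 (0.46 for TNBS and 1.03 for IBC). Without vector 3, 9 of the 22 were higher (7.8% of all genes in that fit) and the median was 0.93. In the Hoxb13-high libraries fitted alone, 18 of 22 were higher (6.87% of all genes) with a median of 1.24. In the Hoxb13-low libraries fitted alone, 12 of 22 were lower (10.7%) with a median of -0.78, and that set holds 2 vector libraries, of which vector 3 is 1. The difference between the sets was not tested. Col1a1, the main fibrillar collagen, had medians of 146, 170 and 926 CPM in vector, TNBS and IBC (edgeR adjusted p = 0.239).

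**Figure D5:**
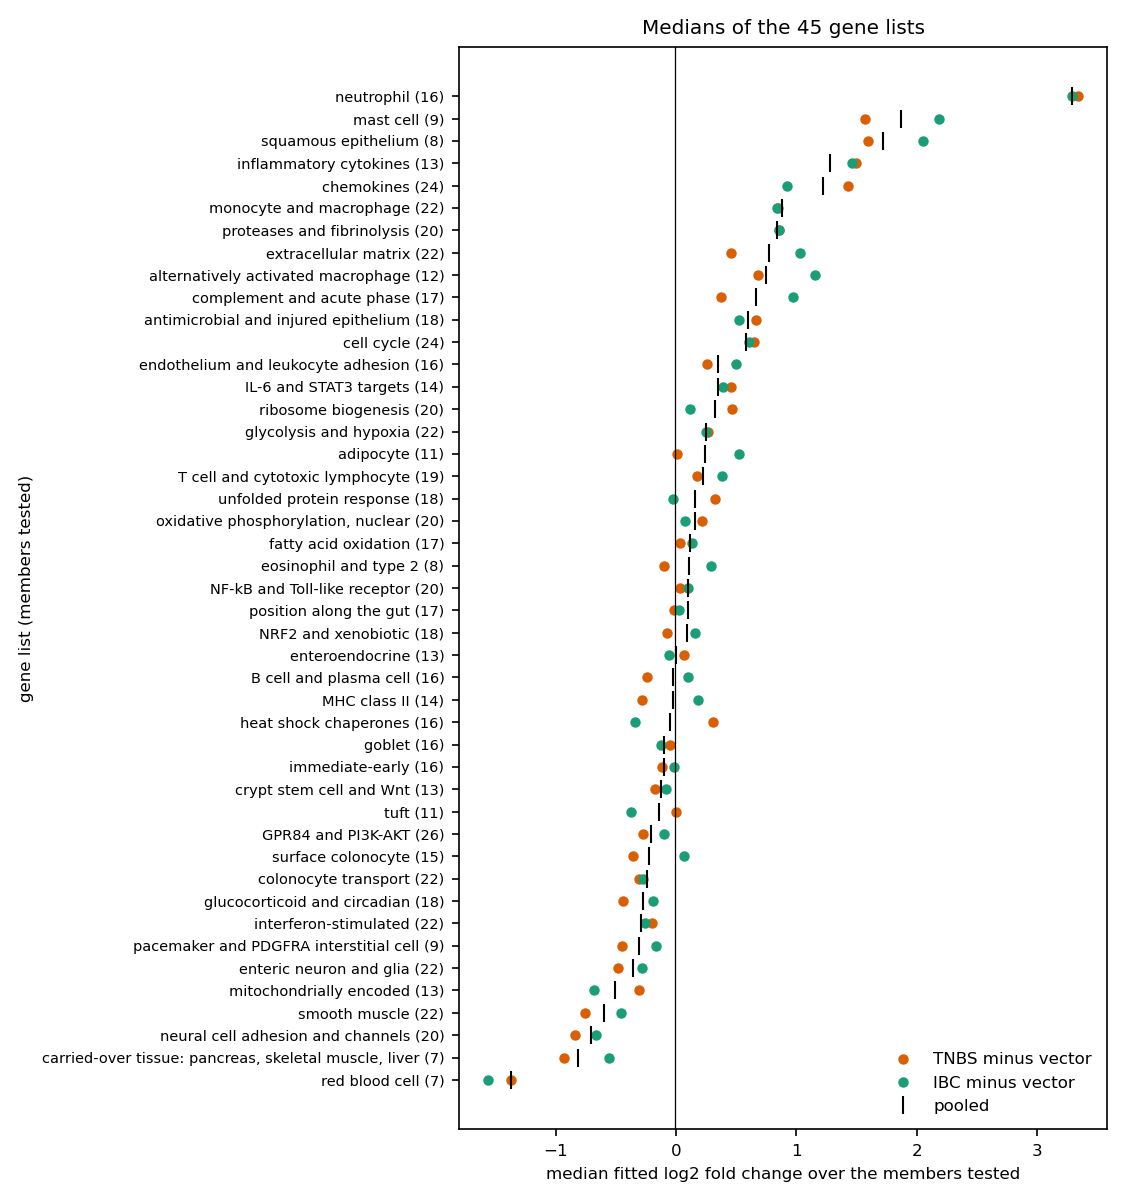
Median fitted log2 fold change against vector over the tested members of each of 45 gene lists, with TNBS minus vector in orange, IBC minus vector in green and the pooled value as a black bar, and with the number of members in brackets. Neutrophil genes stand highest at 3.30 and red blood cell genes lowest at -1.37, while the vertical line marks the median of all genes.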

How the data were processed

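The authors deposited a table of 35405 mouse genes with counts and FPKM values (fragments scaled to transcript length and to 1e6 fragments) for each library, per the file headers. Reads were trimmed with cutadapt 1.9, per the submitters' processing notes. Which aligner, counting program and build were used is not given in the sources used here. Among low counts, 19961 gene and library pairs held 4, against 9977 with 3 and 6358 with 5, so a fragment may be worth more than 1 count and no upper limit is given for a count of 0.

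The filterByExpr function of edgeR 4.0.16 kept 20855 genes, and TMM factors scaled the library totals. A gene near 0 in vector passes this filter only through TNBS or IBC libraries, and the reverse also holds. The direction of such a gene is fixed by the filter. All 18 libraries were fitted together with a mean per group, and the mean of TNBS and IBC minus vector was tested with the quasi-likelihood test, two-sided, with p-values adjusted by Benjamini-Hochberg over all genes at 0.05. A called gene passed this threshold. Other tools were DESeq2 1.42.0 and limma 3.58.1 under R 4.3.3. The depth per library limits precision, and counts were tested as deposited. Data simulated from the libraries, tested over 20397 genes, gave back 47% of 2-fold and 69% of 4-fold changes, with 8.66% of 127 calls false.

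The gene lists (45 lists with 770 genes, 736 of them tested) and the other choices were made with earlier results of these data known, so the lists are described by counts and medians with no list test. The named genes are the 12 called genes with the smallest p in each direction, the 6 largest changes each way among called genes with a mean of at least 2 CPM, up to 3 called genes of each list, the 12 list members with the smallest p, and 7 fixed genes (Gpr84, Akt1, Pik3cg, Pik3r5, Il1b, Il6, Tnf). The called genes Xirp1, Cenatac, Igkv4-72, D9Wsu149, Gm37019, Chrm2, Tppp, Lmo1, Ccdc117, Stum, Enpp6 and Glp2r, and list members that were not called, were chosen as examples after their values were seen. Differences within the Hoxb13-high (at least 20 CPM) and Hoxb13-low libraries are of mean log2 CPM with a prior count of 2. For called genes they use the libraries that gave the call. No libraries were identical.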

Additional observations from a re-analysis of the deposited data

Results flagged for a closer look

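Among 102 pairs of a named gene and a group, 9 held a library far from the other 5, by the gap to its nearest neighbour over the range of log2(CPM + 0.1). Chance gives about 1 in 20. In vector 6, Ctrb1 was at 6914 CPM, Ctrl at 976.7 CPM, Cpb1 at 1471 CPM and Pdia2 at 107.9 CPM, all pancreatic genes. Chil3 in vector 1 (0.06259 CPM) and Cxcl2 in vector 3 (0.07895 CPM) were the only vector libraries above 0 for these genes. Sulf2 (30.67 CPM) and Serpina3n (12 CPM) were lowest in IBC 2, and Clec10a (0.7759 CPM) was lowest in TNBS 6, each far from the other libraries of its group.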

How the results depend on the processing

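Against 39 called genes, 14 higher and 25 lower, 620 were called with DESeq2 (393 and 227), 767 with limma voom and library weights (389 and 378), 165 with the Hoxb13 covariate (79 and 86), 19 with a stricter filter (8 and 11) and 0 with limma on log2(FPKM + 1), where 3148 had an unadjusted p below 0.05. The number higher was 8 with no filter, and the number lower was 9 with limma on log2(FPKM + 0.1). The Hoxb13-high libraries alone gave 8 (6 and 2) and the Hoxb13-low libraries alone 1 (0 and 1). Leaving out vector 3 and vector 6 together, chosen after seeing the data, gave 0, with 2117 at an unadjusted p below 0.05 by edgeR. Leaving out 1 library gave 0 to 244 called genes (0 to 137 higher, 0 to 107 lower), 16 to 41 genes above every vector library and 23 to 54 below. The numbers above and below, 15 and 23 with all libraries, cannot fall when a library is left out, so their range is no sign of stability. With a replicate block the number of called genes was 4 (0 higher, 4 lower), 2 of them among the 39. Same-numbered libraries deviated together in 7 of 18 pairs (correlation above 0.1, median -0.02). Differently numbered pairs were not compared, so this cannot settle whether the numbers pair the libraries. Genes above every vector library numbered 23 with unscaled totals, 26 by FPKM and 47 within each Hoxb13 set, and those below numbered 14 by FPKM and 76 within each set. Counts under the other settings were within 1.5 times, among them 31 genes called with counts divided by 4 (13 higher and 18 lower). In that setting Opcml, Gm21284, Disp3, Xirp1, D9Wsu149, Ctrb1 and Pdia2, which are among the 39, were not tested. For single genes, 705 values stayed on their side of the threshold, 810 were no longer past it, 4 newly passed it and 16 reversed. Genes not tested in a setting are left out of these numbers. DESeq2 gave no adjusted p for the 6 pancreatic genes. Pnliprp1 reversed to 2.377 in the Hoxb13-low libraries alone, and Cpb1 to 0.5025 without vector 6 and 0.6423 without vector 3 and 6. Pik3cg, at 0.03, turned to -0.0165 with voom, -0.05163 with the replicate block, -0.01895 in the Hoxb13-low libraries and -0.2294 without vector 3 and 6. Leaving out 1 library gave it -0.1119 to 0.2432 (Cpb1 -9.415 to 0.5025), with reversed values of -0.02048, -0.1119, -0.04815, -0.04288, -0.007349, -0.09174, -0.04958, -0.008495 and -0.01493 (without vector 1, 3, 4 and 6, TNBS 4 and 6, and IBC 1, 3 and 6). The cause of these changes was not tested. Genes with few counts, such as Gpr84, Disp3 and Il6, are limited by depth.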

Other observations

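Mast cell genes were higher in the 12 TNBS and IBC libraries at an unadjusted p below 0.05 for 5 of 9, against 8.01% of all genes, with a median log2 fold change of 1.87 and none called. Mcpt1, a mucosal mast cell protease, had medians of 0.342, 2.86 and 2.57 CPM in vector, TNBS and IBC (edgeR adjusted p = 0.0613). Of 8 squamous epithelium genes, 4 were higher, among them Krt14, a keratin of the basal layer, with medians of 0.977, 4.73 and 9.31 CPM (adjusted p = 0.136). Of 14 IL-6 and STAT3 targets, 7 were higher, and Socs3, the feedback inhibitor of the pathway, had medians of 11.3, 56.0 and 37.6 CPM (adjusted p = 0.315).

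The 22 interferon-stimulated genes were split, with 2 higher (8.01% of all genes) and 4 lower (7.12%) at an unadjusted p below 0.05. Mx1, an antiviral GTPase, had medians of 11.8, 4.12 and 4.37 CPM in vector, TNBS and IBC (edgeR adjusted p = 0.101), whereas Irf1 had 93.5, 136 and 172 CPM (adjusted p = 0.283). Of 16 goblet cell genes, 4 were lower (7.12% of all genes) and none higher, with a median of -0.10. Clca1, a secreted mucus protein, had medians of 6400, 1128 and 2593 CPM (adjusted p = 0.127). Surface colonocyte, tuft cell and MHC class II genes held no gene at an unadjusted p below 0.05 in either direction. The 13 mitochondrially encoded genes had a median of -0.51, and of 0.05 without vector 3.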
